A study of Rattus norvegicus with 4 samples.

Results

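The genes described here are 10 members of the amino acid stress response that is driven by the transcription factor ATF4, read in cultured rat granulosa cells. They are Asns, Psat1, Phgdh, Slc7a11, Mthfd2, Atf4, Atf5, Nupr1, Ddit3 and Trib3. Every probe set annotated with exactly 1 of these symbols was used, which gave 12 probe sets for all 10 genes, out of 31099 probe sets on the array and 14217 genes with a probe set of a single symbol. Trib3 had 3 probe sets and each other member had 1.

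Granulosa cells are the somatic cells that surround the oocyte and make estrogen. The donors were immature Sprague-Dawley females, 23 to 25 days old, given estradiol, and the cells were cultured without serum in the medium on plates that had been coated with serum. All cultures received an adenovirus for 4 h, and follicle-stimulating hormone (FSH) or vehicle for the 24 h that followed. The 4 groups had 1 array each: FOXOA3 FSH (constitutively active FOXO1 with FSH at 100 ng/ml), FOXOA3-mDBD FSH (its mutant in the DNA-binding domain, with the same FSH), GFP FSH (control vector with FSH) and GFP vehicle (control vector without FSH). No uninfected cells and no FOXO1 vector without FSH were analysed here. Since no group was replicated, no difference could be tested, and each ratio describes 2 arrays.

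When amino acids run short, or other stresses act, kinases phosphorylate the initiation factor eIF2. General protein synthesis then slows, while the ATF4 message is translated more. ATF4 turns on genes for amino acid synthesis and uptake and for further stress regulators, among them CHOP, the product of Ddit3. Because ATF4 is controlled to a large part in translation, the level of its message does not report the level of the protein. In the ovary, granulosa cells proliferate and make steroids under FSH, which signals through cyclic AMP and also restrains FOXO1.

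ATF4 binds with C/EBP partners to a composite element, for which TGATGNAAN was searched on both strands. The search covered the 250 bases before and 50 bases after the annotated start of all 10 members, from RefSeq on build GRCr8. The promoters of 2 of the 10 members held it, Nupr1 and Trib3, against 3.97% of 33469 rat promoters of the same length. In both it lay on the strand opposite to the gene, from 56 to 48 bases before the start in Nupr1 and from 22 to 14 bases before the start in Trib3. These 2 stretches are shown because they are the members' promoters with the element, which stands in capitals as read on the gene's strand.
Nupr1, minus strand of chr1:190645902-190646151: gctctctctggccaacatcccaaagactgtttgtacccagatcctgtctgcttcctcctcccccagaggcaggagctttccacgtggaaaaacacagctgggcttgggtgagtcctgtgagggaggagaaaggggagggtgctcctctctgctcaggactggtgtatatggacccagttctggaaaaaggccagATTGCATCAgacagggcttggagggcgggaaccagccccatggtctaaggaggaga
Trib3, minus strand of chr3:161275534-161275783: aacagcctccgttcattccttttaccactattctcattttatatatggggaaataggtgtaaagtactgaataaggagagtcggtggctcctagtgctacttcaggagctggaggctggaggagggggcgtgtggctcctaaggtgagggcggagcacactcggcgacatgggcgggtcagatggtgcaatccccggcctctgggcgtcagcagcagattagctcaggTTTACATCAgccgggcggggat
The FOXO element GTAAACA, searched in the same way, was in 0 of the 10 promoters and in 3.78% of all. The antioxidant response element TGACNNNGC was in 2 of the 10, Phgdh and Atf5, both times after the start, and in 12.1% of all. These matches describe letters in a window, and binding was not measured here.

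The arrays were not alike in their controls. The 27 probe sets for bacterial poly-A spike transcripts averaged, as a geometric mean, 19.7 on FOXOA3 FSH and 19.3 on GFP vehicle. Their averages were 311 on FOXOA3-mDBD FSH and 249 on GFP FSH. FOXOA3 FSH against GFP vehicle and FOXOA3-mDBD FSH against GFP FSH thus compare arrays of 1 spike state; every other comparison pairs a low array with a high one. Beta-actin, probed at either end of its message, had a 3' over 5' ratio of 9.79, 10.7 and 12.0 on FOXOA3 FSH, FOXOA3-mDBD FSH and GFP FSH, and 5.15 on GFP vehicle. The same ratio for GAPDH was 2.84 on FOXOA3 FSH, 3.15 on FOXOA3-mDBD FSH, 2.46 on GFP FSH and 2.32 on GFP vehicle. The part of any of these differences in the results was not tested. Of 11 granulosa markers analysed, 11, 10, 11 and 10 were above the floor on FOXOA3 FSH, FOXOA3-mDBD FSH, GFP FSH and GFP vehicle, and the ones below it were Amh on FOXOA3-mDBD FSH and Cyp19a1 on GFP vehicle. The floor, a signal of 100.5, was the median of all non-control probe sets. The levels of these markers were far from equal, with summed signals of 42368 on FOXOA3 FSH, 25709 on FOXOA3-mDBD FSH, 98441 on GFP FSH and 35524 on GFP vehicle. Relative to GFP FSH, 7 of the 11 were lower with FOXOA3, against 6.99% of all measured genes, and 9 with FOXOA3-mDBD, against 19.1%. With either vector 0 were higher, against 11.1% and 12.5% of all measured genes. Relative to GFP vehicle, 6 were higher and 0 lower on GFP FSH, against 6.84% and 11.1%.

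Atf4 itself was bright everywhere and differed little. Its signal was 4993 on FOXOA3 FSH, 5957 on FOXOA3-mDBD FSH, 4202 on GFP FSH and 3499 on GFP vehicle. The highest array was 1.70-fold above the lowest, so that no comparison reached 2-fold. With FSH it was 1.20-fold higher than with vehicle, and 33.3% of all measured genes had a ratio as high.

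**Figure D1:**
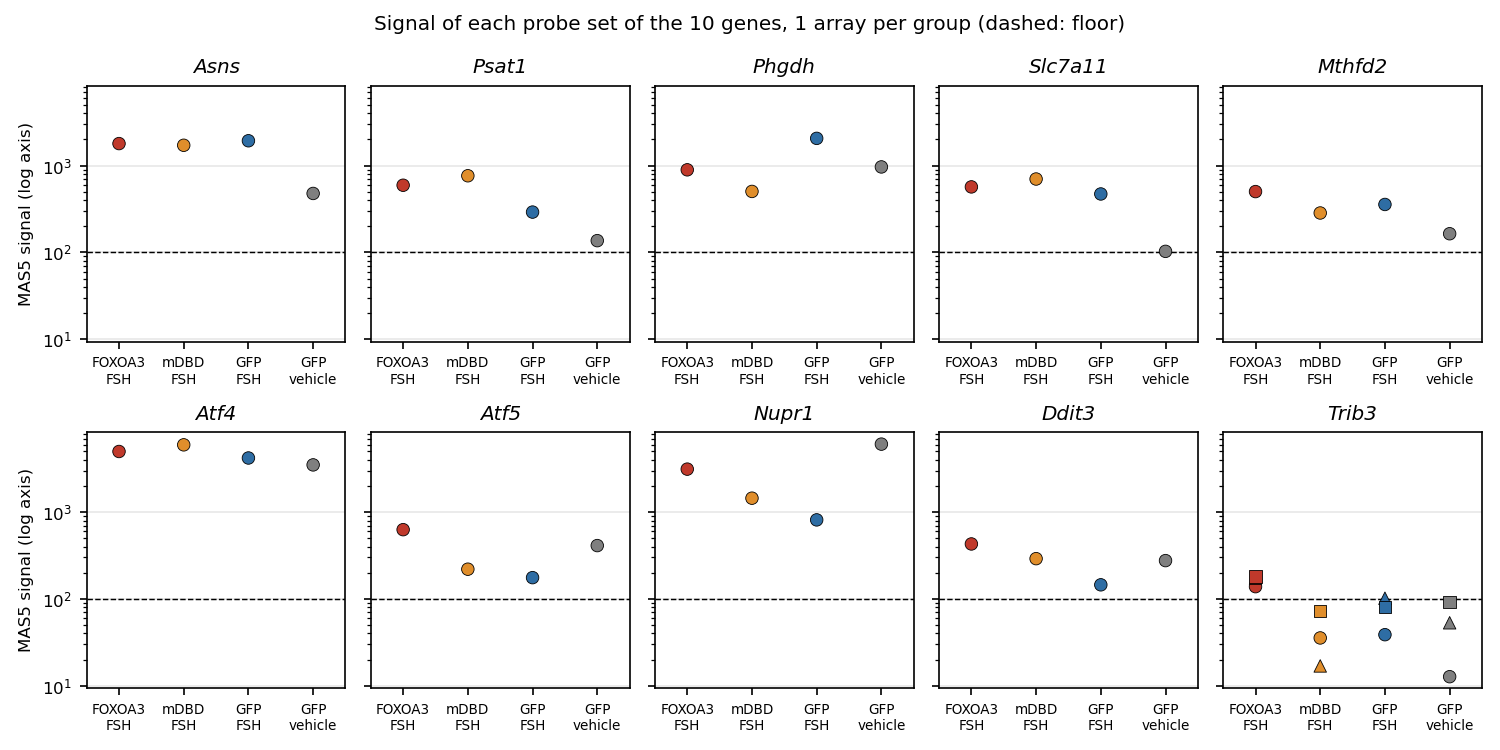
MAS5 signal on a log axis for every probe set of the 10 genes, with 1 point per array and the floor of 100.5 as a dashed line. The circle, triangle and square in the Trib3 panel are its 3 probe sets, with the square the brightest. Atf4 is nearly level, Asns and Slc7a11 are low on GFP vehicle, and Nupr1, Atf5 and Ddit3 are at their lowest on GFP FSH.

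The stress regulators Nupr1, Atf5 and Ddit3 had their lowest signal on GFP FSH. Nupr1, a small stress-induced nuclear protein, had a signal of 3127 on FOXOA3 FSH, 1447 on FOXOA3-mDBD FSH, 814 on GFP FSH and 6070 on GFP vehicle. It was 7.46-fold lower with FSH than with vehicle, which 0.689% of measured genes matched or passed, and 3.84-fold higher with FOXOA3 than with GFP under FSH. FOXOA3 FSH lay between the GFP arrays, 1.94-fold below GFP vehicle on arrays of the same spike state. With FOXOA3-mDBD the signal was 1.78-fold above GFP FSH, short of 2-fold, and 4.20-fold below GFP vehicle.

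Atf5, a basic leucine zipper factor related to ATF4, had a signal of 628 on FOXOA3 FSH, 220 on FOXOA3-mDBD FSH, 176 on GFP FSH and 411 on GFP vehicle. It was highest with FOXOA3, above vehicle by 1.53-fold, and both other FSH arrays were low. FSH against vehicle gave a 2.34-fold lower signal, FOXOA3 against GFP a 3.57-fold higher one and FOXOA3-mDBD against GFP a 1.25-fold higher one. FOXOA3 exceeded its DNA-binding mutant 2.85-fold.

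Ddit3, the gene of the stress factor CHOP, had a signal of 430 on FOXOA3 FSH, 291 on FOXOA3-mDBD FSH, 145 on GFP FSH and 276 on GFP vehicle. GFP FSH was the low array here too, 1.90-fold under vehicle and thus just short of 2-fold. Both FOXO1 vectors were above GFP with FSH, FOXOA3 by 2.96-fold and FOXOA3-mDBD by 2.0-fold, at the threshold itself. Between FOXOA3 and its mutant the ratio was 1.48-fold.

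Trib3 encodes a pseudokinase that binds ATF4 and restrains AKT. By its brightest probe set it was at a signal of 180.4 on FOXOA3 FSH, 72.6 on FOXOA3-mDBD FSH, 80.5 on GFP FSH and 91.9 on GFP vehicle. The second had 173 on FOXOA3 FSH, 16.9 on FOXOA3-mDBD FSH, 102 on GFP FSH and 53.1 on GFP vehicle. The third had 138 on FOXOA3 FSH, 35.5 on FOXOA3-mDBD FSH, 38.7 on GFP FSH and 12.7 on GFP vehicle. All 3 were highest on FOXOA3 FSH and above the floor there. On the other arrays 1 value, the 102 on GFP FSH, exceeded the floor. By the brightest probe set, with GFP FSH under the floor, FOXOA3 FSH was at least 1.80-fold above GFP FSH.

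In bulk RNA, fewer cells of a type and less RNA per cell cannot be told apart. The 10 markers of theca, stroma and smooth muscle summed to a signal of 24433 on FOXOA3 FSH, 1482 on FOXOA3-mDBD FSH, 2318 on GFP FSH and 16695 on GFP vehicle, with 6, 3, 5 and 6 of them above the floor. The sum was thus high on the arrays where Nupr1 and Atf5 were highest. Different genes made it up, with Dcn at 12504 on FOXOA3 FSH and 624 on GFP vehicle, and Tagln at 3238 on FOXOA3 FSH and 9167 on GFP vehicle. Cyp17a1, Insl3 and Col1a1 were under the floor on all 4 arrays. The 7 leukocyte markers also had their highest sums on FOXOA3 FSH, at 4143, and GFP vehicle, at 2730. The sums were 1754 on FOXOA3-mDBD FSH and 1563 on GFP FSH. Above the floor were 3 of them on FOXOA3 FSH and 2 on each other array. Cd14 and Lyz2 carried most of each sum. Cd14 followed the order of the sums, whereas Lyz2 was lowest on GFP vehicle, at 376 against 592 on GFP FSH. Ptprc, Cd68, Itgam and Cd3e were under the floor on all 4 arrays. The 5 endothelial markers summed to between 306 and 587, and the 5 oocyte markers to between 443 and 1200. The granulosa sum was instead highest on GFP FSH, the array where Nupr1, Atf5 and Ddit3 were lowest and Phgdh highest. Not every granulosa marker followed that sum. Inha was at 29569 on GFP FSH and 9571 on GFP vehicle, and Cyp19a1 at 13042 and 35. Foxl2 and Amh were lower on GFP FSH, at 3536 and 110.9, than on GFP vehicle, at 5546 and 136.5. The part of any of these cell types in the members' signals was not tested.

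The amino acid genes took another course and, under the GFP vector, were higher with FSH than with vehicle. Asns, which makes asparagine from aspartate and glutamine, had a signal of 1793 on FOXOA3 FSH, 1715 on FOXOA3-mDBD FSH, 1933 on GFP FSH and 478 on GFP vehicle. The 3 FSH arrays lay within 1.13-fold of each other and vehicle was alone at the bottom. The ratio of GFP FSH to GFP vehicle was 4.05-fold, which 1.36% of measured genes reached. FOXOA3 FSH was 3.75-fold above GFP vehicle on arrays of the same spike state, a pair that differs in both hormone and vector.

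Slc7a11, the exchanger that imports cystine for glutathione, had a signal of 568 on FOXOA3 FSH, 701 on FOXOA3-mDBD FSH, 471 on GFP FSH and 103 on GFP vehicle. The vehicle signal was next to the floor, so the ratio of 4.58-fold between GFP FSH and GFP vehicle rests on a dim value. The FOXO1 vectors were above GFP with FSH, FOXOA3 by 1.21-fold and FOXOA3-mDBD by 1.49-fold, both short of 2-fold. FOXOA3 FSH was 5.53-fold above GFP vehicle.

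Phgdh and Psat1 encode the first and the second enzyme of serine synthesis, and they parted under the FOXO1 vectors. Phgdh had a signal of 894 on FOXOA3 FSH, 504 on FOXOA3-mDBD FSH, 2060 on GFP FSH and 966 on GFP vehicle. Psat1 had 594 on FOXOA3 FSH, 764 on FOXOA3-mDBD FSH, 291 on GFP FSH and 137 on GFP vehicle. Both were 2.13-fold higher with FSH than with vehicle under GFP. With FOXOA3, Phgdh was 2.30-fold lower and Psat1 2.04-fold higher than with GFP and FSH. With FOXOA3-mDBD the ratios were larger, 4.09-fold lower for Phgdh and 2.62-fold higher for Psat1, on arrays of the same spike state. Relative to GFP vehicle, Phgdh was 1.08-fold lower on FOXOA3 FSH while Psat1 was 4.35-fold higher.

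Mthfd2, the mitochondrial enzyme that oxidises the folate-bound carbon unit taken from serine, had a signal of 502 on FOXOA3 FSH, 285 on FOXOA3-mDBD FSH, 357 on GFP FSH and 164 on GFP vehicle. It was lowest with vehicle, by 2.17-fold against GFP FSH and 3.06-fold against FOXOA3 FSH. The 2 FOXO1 arrays lay on either side of GFP FSH, at 1.41-fold higher for FOXOA3 and 1.25-fold lower for FOXOA3-mDBD.

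**Figure D2:**
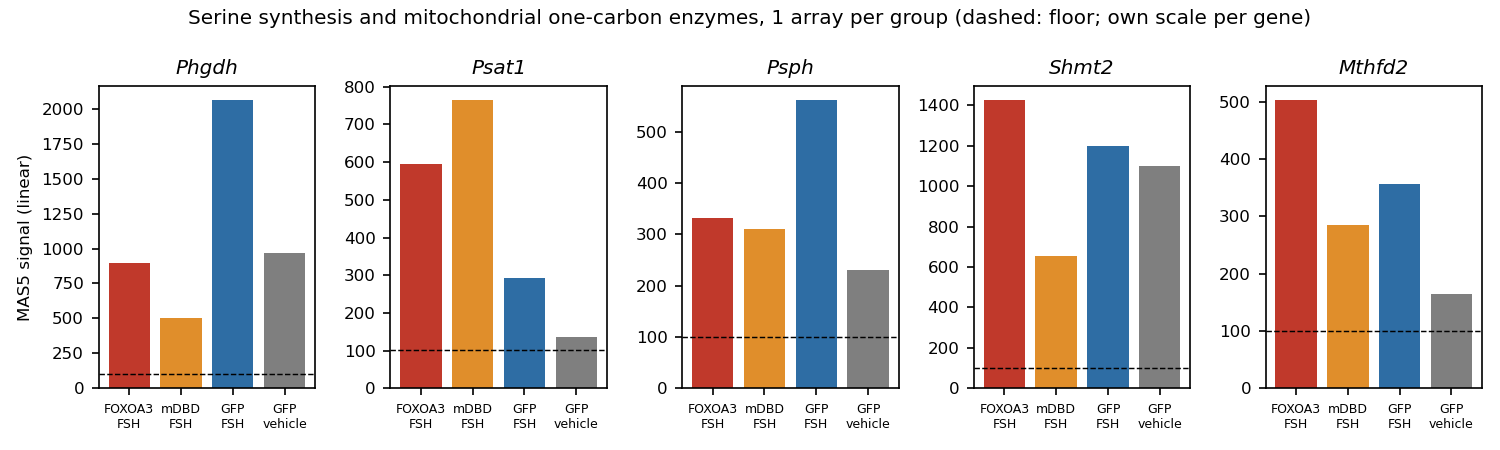
MAS5 signal on a linear axis from 0, with its own scale for each gene, for 5 enzymes of serine synthesis and mitochondrial one-carbon metabolism, 1 array per bar; the dashed line is the floor of 100.5. Phgdh and Psph peak on GFP FSH, whereas Psat1 is highest on FOXOA3-mDBD FSH.

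Of the 6 comparisons, that of FSH with vehicle had the largest share of members past 2-fold. For GFP FSH against GFP vehicle, 5 of the 9 measured members were higher (Asns, Psat1, Phgdh, Slc7a11 and Mthfd2), against 6.84% of 9578 measured genes. Another 2, Atf5 and Nupr1, were lower, against 11.1% of measured genes. A gene was counted as measured if at least 1 of the 2 arrays exceeded the floor, which left out Trib3. With the stricter filter at the 75th percentile of signal, 4 members were measured, and 2 were higher and 1 lower. The median log2 ratio of the members was 1.09 and that of all measured genes was -0.0027. This comparison crosses the spike state. The beta-actin ratios of its arrays were 12.0 and 5.15, and the GAPDH ratios 2.46 and 2.32.

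FOXOA3 FSH against GFP FSH had 4 of 10 members higher (Psat1, Atf5, Nupr1 and Ddit3), against 11.1% of 9941 measured genes, and 1 lower (Phgdh), against 6.99%. The median log2 ratio was 0.67 for the members and 0.04 for all genes. FOXOA3 FSH against GFP FSH crosses the spike state, so spike state and vector cannot be told apart in it. FOXOA3-mDBD FSH against GFP FSH had 2 of 9 higher (Psat1 and Ddit3), against 12.5% of 9748 genes, and 1 lower (Phgdh), against 19.1%. Its median was 0.50 for the members and -0.16 for all genes. Psat1 did not reach 2-fold for FOXOA3 under quantile normalization (log2 ratio 0.86) or centring on the median of all genes (log2 ratio 0.99), nor did Ddit3 for FOXOA3-mDBD under quantile normalization (log2 ratio 0.99). These comparisons and the one before share the GFP FSH array, so a chance deviation of that array enters all of them.

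Active FOXO1 against its DNA-binding mutant does not use that array, but it crosses the spike state. Of the 10 members, 2 were higher with FOXOA3, Atf5 at 2.85-fold and Nupr1 at 2.16-fold, against 19.0% of 10092 genes, and 0 were lower, against 9.24%. In both genes, the 2 arrays with low spike signals were above the 2 with high ones. Spike state and vector cannot be told apart in this comparison. The share of higher members was close to that of all genes. The median log2 ratio was 0.69 for the members and 0.21 for all genes, and centring on the median of all genes left Nupr1 at 0.91, short of 2-fold. FOXOA3 FSH against GFP vehicle had 4 of 10 higher (Asns, Psat1, Slc7a11 and Mthfd2), against 5.32% of 9904 genes, and 0 lower, against 4.01%. Its arrays share the spike state, but both hormone and vector change, and their beta-actin ratios were 9.79 and 5.15.

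FOXOA3-mDBD FSH against GFP vehicle crosses the spike state and changes both hormone and vector. Of 9 measured members, 3 were higher (Slc7a11 at 6.82-fold, Psat1 at 5.59-fold and Asns at 3.59-fold), against 13.0% of 9861 measured genes, and 1 was lower (Nupr1 at 4.20-fold), against 22.5%. Atf5 and Phgdh were 1.87-fold and 1.92-fold lower, short of 2-fold. Among the lists, the chaperone gene Hyou1 had a signal of 107 on FOXOA3-mDBD FSH, against 1811 on GFP vehicle. The glutamine synthetase gene Glul was 2.60-fold higher in that comparison and 2.63-fold higher for FOXOA3 FSH against GFP vehicle.

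**Figure D3:**
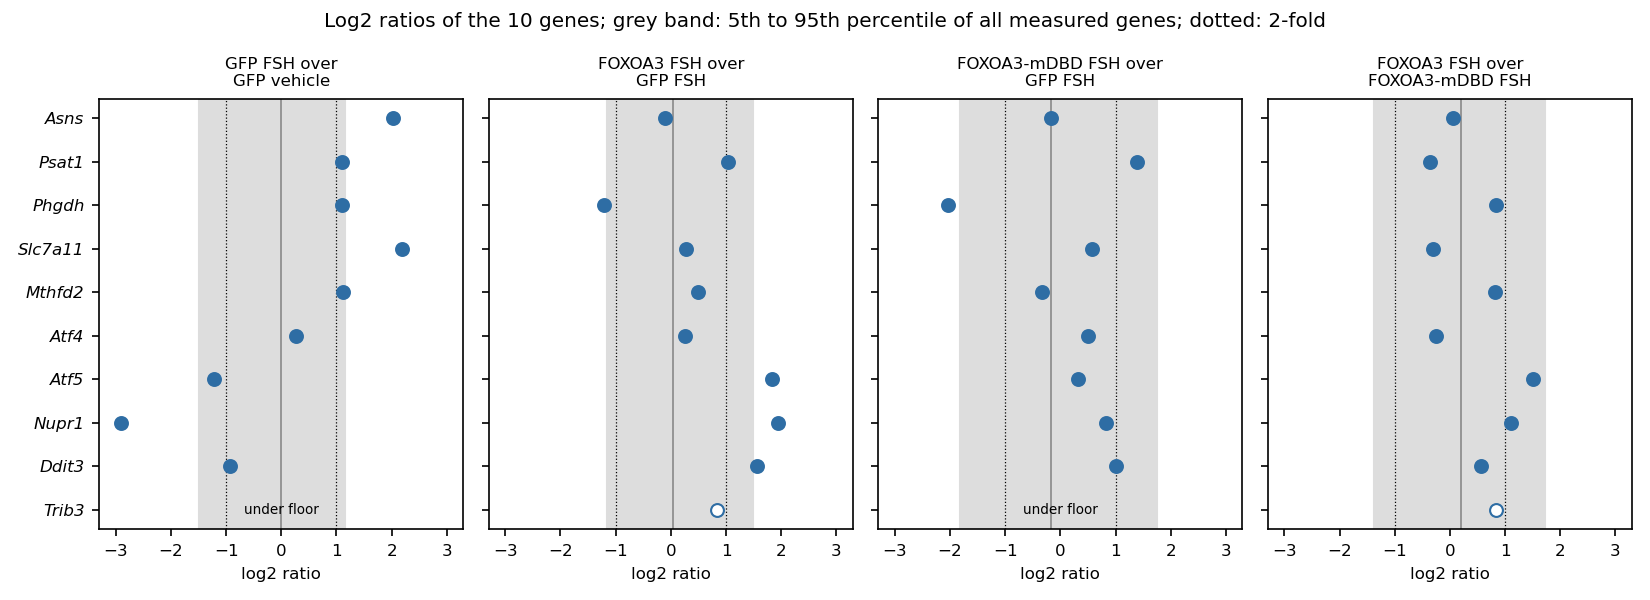
Log2 ratios of the 10 genes in 4 comparisons, with the grey band from the 5th to the 95th percentile of all measured genes and dotted lines at 2-fold. Open circles are bounds, since 1 of the 2 signals was under the floor. Asns and Slc7a11 stand right of the band for GFP FSH over GFP vehicle, Nupr1 left of it, and Phgdh lies left of it in both comparisons of a FOXO1 vector with GFP FSH.

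Upstream of ATF4, the messages of the eIF2 kinases were within 2-fold with FSH, though Eif2ak4 was 1.96-fold higher, just short of it. Of 10 genes of this list, 0 were higher and 1 was lower with FSH, against 6.84% and 11.1% of all measured genes. The lower one was Ppp1r15a, the stress-induced subunit of the phosphatase that reactivates eIF2. It was 2.56-fold lower, at 377 on GFP FSH against 965 on GFP vehicle. The PERK gene Eif2ak3 was between 476 and 566 on all 4 arrays. Eif2ak4, the kinase GCN2 that senses uncharged tRNA, had a signal of 799 on FOXOA3 FSH, 679 on FOXOA3-mDBD FSH, 2214 on GFP FSH and 1130 on GFP vehicle. It was thus 2.77-fold lower with FOXOA3 and 3.26-fold lower with FOXOA3-mDBD than with GFP and FSH. Eif2ak2, the double-stranded RNA sensor PKR, was 2.30-fold and 2.59-fold higher with these vectors. Ppp1r15a was higher too, by 2.54-fold for FOXOA3, at a signal of 957, and by 2.11-fold for the mutant, at 797. Its lowest signal was thus that of GFP FSH. Active FOXO1 had 2 of the 10 genes higher and 1 lower than GFP FSH, against 11.1% and 6.99% of all measured genes. For the mutant these counts were 3 and 1, against 12.5% and 19.1%. Impact, an inhibitor of GCN2, had a signal of 718 on FOXOA3 FSH, 2613 on FOXOA3-mDBD FSH, 1239 on GFP FSH and 789 on GFP vehicle.

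Of 11 measured partners of ATF4 and other stress effectors, 1 was higher with FSH, against 6.84% of all measured genes, and 4 were lower, against 11.1%. The other 6 were within 2-fold, and the median log2 ratio of the list was -0.50. Ddit4, an inhibitor of mTORC1, was the higher one at 60.0-fold. Atf3, a stress-induced partner factor, was 2.85-fold lower, the lipoprotein receptor Vldlr 2.54-fold and the apoptosis gene Bbc3 2.29-fold. FOXOA3 against GFP had 5 of 11 higher and 1 lower, against 11.1% and 6.99% of all measured genes, with a list median of 0.89. Cebpb, a C/EBP factor, was 5.33-fold higher, Chac1, which degrades glutathione, 3.31-fold and Atf3 3.23-fold, whereas Ddit4 was 3.22-fold lower. With FOXOA3-mDBD, Ddit4 was 5.31-fold lower and Atf3 5.01-fold higher too, but Cebpb was at least 5.17-fold lower. In that comparison Eif4ebp1 was 4.35-fold lower. Of 10 measured genes of the list, 3 were higher and 3 lower with FOXOA3-mDBD, against 12.5% and 19.1% of all measured genes. The signal of Cebpb was 2774 on FOXOA3 FSH, 99.1 on FOXOA3-mDBD FSH, 520 on GFP FSH and 848 on GFP vehicle. FOXOA3 exceeded the mutant by at least 27.6-fold in Cebpb, and Chac1 was at 578 on FOXOA3 FSH, 382 on FOXOA3-mDBD FSH, 174 on GFP FSH and 247 on GFP vehicle.

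The remaining serine, glycine and one-carbon enzymes were higher with FSH in 4 of 11 cases and lower in 0, with a median of 0.78. Of all measured genes, 6.84% were higher and 11.1% lower. Psph, which completes serine synthesis, was 2.43-fold higher, Gcat 2.27-fold, Mthfd2l 2.19-fold and Aldh1l1 at least 2.51-fold. Psph had a signal of 331 on FOXOA3 FSH, 311 on FOXOA3-mDBD FSH, 561 on GFP FSH and 231 on GFP vehicle, so that it followed Phgdh more than Psat1 in being highest on GFP FSH. With FOXOA3 this list had 1 gene higher, the glycine decarboxylase Gldc by at least 2.48-fold, and 1 lower, Gcat at 2.53-fold. With FOXOA3-mDBD 0 were higher and 3 lower: Gcat, Shmt1 and Mthfd1. The shares of all measured genes were 11.1% higher and 6.99% lower with FOXOA3, and 12.5% and 19.1% with FOXOA3-mDBD. Shmt2, the mitochondrial enzyme that splits serine to glycine and a carbon unit, had a signal of 1425 on FOXOA3 FSH, 655 on FOXOA3-mDBD FSH, 1201 on GFP FSH and 1100 on GFP vehicle, so that the mutant array was the low one.

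Other genes of amino acid synthesis had 3 of 9 higher and 1 lower with FSH, against 6.84% and 11.1% of all measured genes. Ass1, the argininosuccinate synthase, was at least 24.2-fold higher, the alanine transaminase Gpt2 at least 7.04-fold and the aspartate transaminase Got1 2.46-fold, while Pck2 was 2.15-fold lower. With FOXOA3 against GFP, 0 of 9 were higher and 4 lower, against 11.1% and 6.99% of all measured genes. Ass1 at 5.95-fold and Gpt2 at 3.01-fold led the lower ones. Asns, at 1.08-fold lower, stayed near its FSH level in that comparison. With FOXOA3-mDBD, 0 of 10 were higher and 4 lower, against 12.5% and 19.1% of all measured genes. The lower ones were Ass1 at least 24.2-fold, Aldh18a1, an enzyme of proline synthesis, 5.62-fold, Gpt2 3.87-fold and the aspartate transaminase Got2 3.05-fold.

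Amino acid transporters and tRNA synthetases, which include many known ATF4 targets, were closer to level with FSH. Of 10 measured transporters, 2 were higher with FSH, Slc7a6 at 2.48-fold and Slc6a6 at 2.07-fold, and 0 lower. The shares of all measured genes were 6.84% higher and 11.1% lower. Slc7a5, the exchanger of large neutral amino acids, was 2.33-fold higher with FOXOA3 than with GFP and 4.20-fold higher than with FOXOA3-mDBD. Slc7a3, a transporter of cationic amino acids, was at least 3.52-fold higher with FOXOA3 and at least 4.19-fold with FOXOA3-mDBD. With FOXOA3 against GFP, 2 of 12 transporters were higher and 1 lower, Slc7a6 at 2.17-fold. With FOXOA3-mDBD, 1 of 12 was higher and 3 lower. The lower ones were Slc1a4 at 2.69-fold, Slc6a9 at least 2.42-fold and Slc38a1 at 2.35-fold. Of all measured genes, 11.1% were higher and 6.99% lower with FOXOA3, and 12.5% and 19.1% with FOXOA3-mDBD. All 19 cytosolic tRNA synthetases measured were within 2-fold with FSH and with FOXOA3, at medians of 0.36 and -0.28. With FOXOA3-mDBD against GFP, Nars1 was 2.47-fold higher, and Vars1 and Farsa were 2.51-fold and 2.10-fold lower. These were 1 and 2 of 19, against 12.5% and 19.1% of all measured genes. For FOXOA3 against GFP, with 0 synthetases past 2-fold, the shares of all measured genes were 11.1% and 6.99%.

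Slc7a11 is also a target of the oxidative stress factor NRF2, and the other genes of that list were read beside it. With FSH, 4 of 9 were higher and 0 lower: Gclc at 5.07-fold, Srxn1 at 3.20-fold, Me1 at 2.93-fold and Nqo1 at 2.64-fold. With FOXOA3 against GFP, 0 were higher and 4 lower, with Gclc at 4.10-fold and Me1 at 2.58-fold lower, where Slc7a11 was 1.21-fold higher. With FOXOA3-mDBD, 0 of 8 were higher and 4 lower, Me1 at 3.88-fold, Nqo1 at 3.86-fold, Srxn1 at 3.72-fold and Gclc at 3.17-fold. In the endoplasmic reticulum list, 3 of 15 genes were higher with FSH and 1 lower, with Herpud1 2.72-fold higher and the chaperone Hyou1 4.30-fold lower. With FOXOA3-mDBD, 3 were higher and 9 lower, with Dnajb9 4.60-fold higher and Hyou1 3.95-fold lower, whereas Ddit3, a gene shared by both stress branches, was 2.0-fold higher. Beside both lists, the shares of all measured genes were 6.84% higher and 11.1% lower with FSH. They were 11.1% and 6.99% with FOXOA3, and 12.5% and 19.1% with FOXOA3-mDBD, each against GFP FSH.

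**Figure D4:**
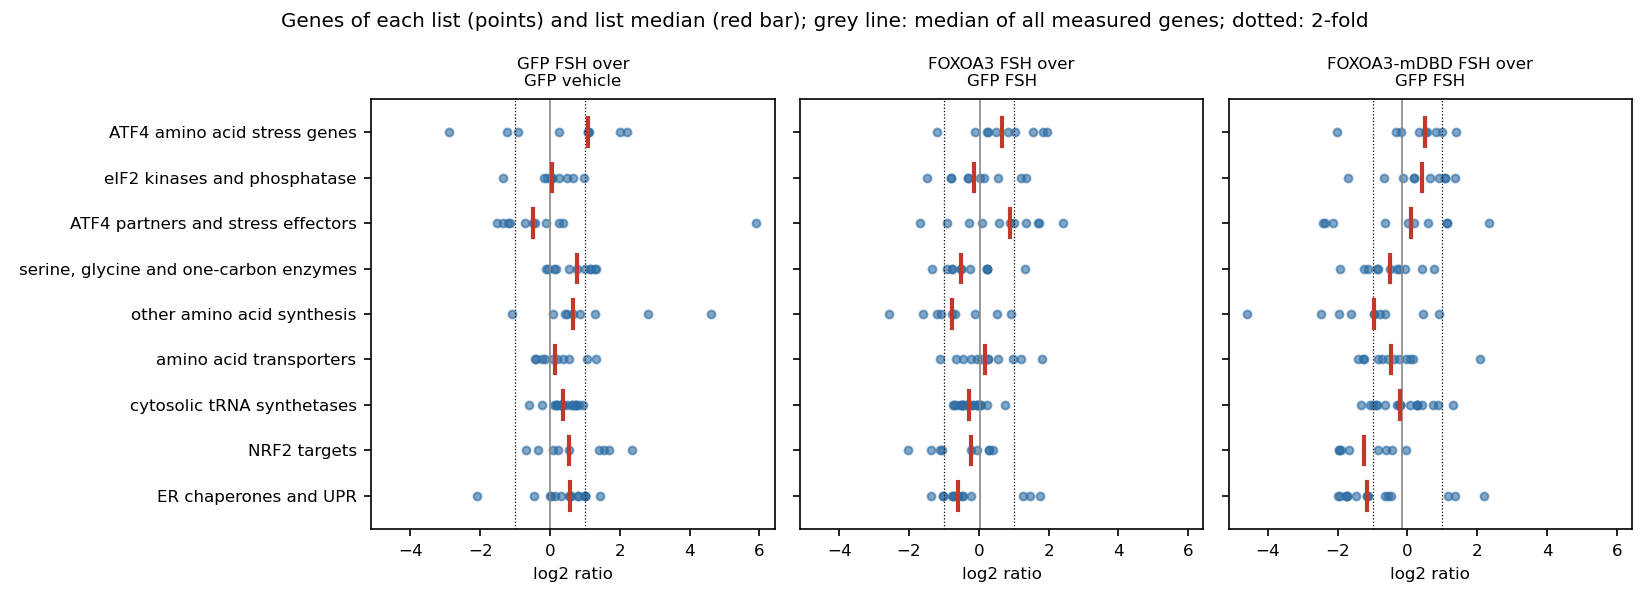
Log2 ratios of the measured genes of each list as points, list medians as red bars and the median of all measured genes as a grey line, for 3 comparisons. The 9 measured ATF4 genes have a median of 1.09 for GFP FSH over GFP vehicle, against 0.36 for the tRNA synthetases and -0.50 for the partners and effectors.

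The members' patterns over the 4 arrays were set beside those of 8114 genes above the floor on every array, by the root mean square distance between log2 signals centred on each gene's mean. Nupr1 was most like Dab2, an endocytic adaptor (distance 0.057), Rnf144b (0.12) and Zbtb18 (0.13). Atf5 was nearest to the cell cycle inhibitor gene Cdkn1a (0.11), Zfp618 (0.13) and Zbtb42 (0.13), and Ddit3 to Rnf217 (0.046), Eml4 (0.066) and Rgmb (0.076). Cdkn1a had a signal of 5657 on FOXOA3 FSH, 1721 on FOXOA3-mDBD FSH, 1436 on GFP FSH and 3904 on GFP vehicle, the order of Atf5. Phgdh was nearest to Bltp3a (0.049), the sterol synthesis scaffold gene Erg28 (0.059) and the co-chaperone gene Fkbp4 (0.063). Asns was farther from its neighbours, Sphk1 (0.20), Plau (0.20) and Gstt3 (0.27), as was Slc7a11 from Trim30d (0.28), Adcyap1 (0.34) and Asns (0.36). Psat1 was nearest to Lig4 (0.18), C11h21orf91 (0.19) and Rad18 (0.20), and Mthfd2 to B4galt6 (0.12), Oas1a (0.14) and Cx3cl1 (0.15). Atf4 was nearest to Itfg2 (0.021), Clp1 (0.035) and Pole4 (0.039). Trib3, which was not above the floor on every array, was left out. With 4 arrays these distances are descriptions.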

How the data were processed

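RNA of primary rat granulosa cells was read on 4 arrays, 1 for each group. The authors deposited a linear intensity for each probe set on each array, which MAS5 had produced, per the submitters' processing notes. The MAS5 version and settings are not stated in the sources used here. The 2% trimmed means were between 500.1 and 500.2 on all arrays, so no scaling was added. Such scaling hides differences in total RNA per cell.

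Gene counts left out 57 control probe sets, 436 with more than 1 symbol and 9780 without a symbol, which left 20826 probe sets of 14217 genes, and 99.7% of their gene identifiers matched current RefSeq. Each gene was read by its brightest probe set. Signals under the floor, the 50th percentile (100.5), were raised to it before log2. Ratios with a signal under the floor are bounds, written "at least". Genes past 2-fold were counted, with no p-values. The number of arrays limits the precision. The steps were tested on simulated data, with changes larger than 2-fold planted in genes well above the floor. That test does not cover calls in dim genes or ratios near 2-fold. Python 3.11.15 and pandas 2.3.3 were used.

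The members, the 8 pathway lists and the tests were chosen with earlier results of these data known. Of 111 list entries, 105 were named on the array and the others were not analysed here. Named were all members, genes taken from the up to 4 past 2-fold per list and comparison with the largest ratios, not all of which are printed, and the 3 nearest genes of each member above the floor on every array, which left out Trib3. Levels of further genes stand beside these where a comparison names them. Promoter sequences are those of RefSeq on GRCr8, matched for 10 of 10 members by gene identifier. The alternatives were other floors, a filter at the 75th percentile, quantile normalization, median centring and the mean of all probe sets.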

Additional observations from a re-analysis of the deposited data

How the results depend on the processing

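Under the 6 alternatives, all 322 member ratios that could be recomputed moved by less than 1.5-fold from the values above, and 0 of those past 2-fold changed direction. Many of these ratios could not move. Each member except Trib3 had 1 probe set, above the floor on every array. For these members only quantile normalization and median centring could change a ratio. The count of members past 2-fold for GFP FSH against GFP vehicle fell to 3 of 4 measured members, against 7 of 9, with the filter at the 75th percentile, since fewer genes were measured. For FOXOA3 FSH against FOXOA3-mDBD FSH it was 1 with median centring, against 2, since the median of all genes was moved by -0.21. Psat1 for FOXOA3 FSH against GFP FSH dropped below 2-fold with quantile normalization (0.86) and centring (0.99), and Ddit3 for FOXOA3-mDBD FSH against GFP FSH with quantile normalization (0.99). Trib3 passed 2-fold for FOXOA3 FSH against GFP FSH (1.16) and against FOXOA3-mDBD FSH (1.31) with the floor at the 25th percentile or without a floor. Among all genes, the lower floor gave 2651 calls for GFP FSH against GFP vehicle, against 1718, 2956 for FOXOA3 FSH against GFP FSH, against 1800, and 1846 for FOXOA3 FSH against GFP vehicle, against 924, which the filter made 602. Centring moved the median of all genes by 0.16 and 0.17 for FOXOA3-mDBD FSH against GFP FSH and against GFP vehicle. It moved the share of higher calls to 50.9% for FOXOA3-mDBD FSH against GFP FSH, against 39.6%, to 49.9% for FOXOA3 FSH against FOXOA3-mDBD FSH, against 67.2%, and to 47.5% for FOXOA3-mDBD FSH against GFP vehicle, against 36.6%. No paired analysis was possible because each group had 1 array.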
